A study of Mus musculus with 23 samples.

Results

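The EGF receptor gene Egfr and the genes of the 7 ligands that bind its product (Btc, Areg, Ereg, Hbegf, Tgfa, Epgn and Egf) were followed in RNA sequencing of mouse sciatic nerves (SNs). The 8 genes were chosen by name and not by any measured value. They were found among the 43068 genes listed for a nerve crush experiment and among the 22880 genes listed for an experiment with inducible knockouts (iKO). The crush experiment held 11 libraries of wild-type C57bl6 males that were 2 months old at surgery. Of these, 4 came from SNs at 3 days post crush (dpc), 4 from the contralateral nerve and 3 from uncrushed surgery controls. The iKO experiment held 12 libraries on the C57bl6 background, all taken 3 months post tamoxifen (mpT), with 3 mice in each of 4 groups. Dicer iKO and Dgcr8 iKO mice were P0-CreERT2 -/+ and homozygous for the Dicer1 flox or the Dgcr8 flox allele, and their controls were Cre-negative, carried the same floxed alleles and received tamoxifen too. Tamoxifen was given at an age of 8 to 10 weeks, to mice of either sex. This Cre is directed at the myelinating Schwann cells (SCs), while the RNA came from whole nerve with all its other cells. The injured piece was taken distal to the crush site. The mutant mice were chosen by the study for visible changes of nerve morphology, since not every animal of these genotypes was affected, so the groups differ by that choice as well as by genotype. Contralateral nerves came from mice with a crush on the other side, and the labels do not tie single libraries to mice, so crushed and contralateral libraries were compared as separate samples although they are not independent. The p-values set the group differences against the spread between these libraries. For crushed against contralateral nerves they assume an independence that is not met.

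The EGF receptor (ErbB1) is a receptor tyrosine kinase that dimerizes when a ligand binds and then drives the Ras-MAPK and PI3K pathways. Its ligands are made as membrane-anchored precursors, and proteases of the ADAM family cut them free from the cell surface. Amphiregulin (Areg), epigen (Epgn), transforming growth factor alpha (Tgfa) and EGF bind the EGF receptor, whereas betacellulin (Btc), heparin-binding EGF-like growth factor (Hbegf) and epiregulin (Ereg) bind ErbB4 as well. In peripheral nerve, SCs are best known for depending on ErbB2 and ErbB3, the receptor pair for neuregulin 1, and mature myelinating SCs change into a repair state after injury.

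Total counts were 6617600 to 12805920 per library in the crush experiment and 5594838 to 10143207 in the iKO experiment. A limit of 3 counts per library corresponds to 0.233 to 0.458 CPM (counts scaled to library size by TMM over the libraries of an experiment) and to 0.285 to 0.522 CPM, respectively, and covers counting error only. Markers of myelinating SCs were present in every library and summed to 37124 to 55939 CPM in the uncrushed and contralateral nerves, against 1179 to 1873 CPM at 3 dpc. Of the targeted genes, Dicer1 stood at 82.1 ± 0.924 CPM (SD, n = 3) in Dicer iKO and 89.1 ± 1.61 CPM in controls, with every mutant library (81.0 to 82.8 CPM) below every control (88.0 to 91.0 CPM), but the difference did not pass the test (log2 fold change -0.11, edgeR adjusted p = 0.357). For Dgcr8 the level was 44.9 ± 7.72 CPM in the Dgcr8 iKO libraries, with 38.3 ± 3.51 CPM in controls (log2 fold change 0.22, adjusted p = 0.233), and these ranges overlapped. Whole-gene counts include exons outside the floxed part and cells without Cre, so they do not check the deletion. Directions in the mutants below are therefore those of the libraries labelled Dicer iKO and Dgcr8 iKO. The 2 experiments were made with different kits according to the labels, and levels are compared only within an experiment.

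Areg, Ereg, Epgn and Btc lie close together on chromosome 5, within 376 kb between positions 91027464 and 91402994 of GRCm38, and are all protein-coding. Egfr lies on chromosome 11 (16752203 to 16918158), Tgfa on chromosome 6 (86195223 to 86275719) and Egf on chromosome 3 (129677565 to 129755316). Since Dicer and Dgcr8 both act in making miRNAs, sequences that could pair with the seed of an abundant nerve miRNA were looked up in the 3′ untranslated regions (UTRs) of the 8 genes. The 7 mature miRNAs below were those the study names as abundant in the developing and adult nerve. They are printed from RefSeq (GRCm38.p6) with the seed, bases 2 to 8, in capitals, and miR-10a and miR-10b share theirs.
let-7f-5p: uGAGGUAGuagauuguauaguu
miR-27b-3p: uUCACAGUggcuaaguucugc
miR-26a-5p: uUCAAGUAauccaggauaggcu
miR-181a-5p: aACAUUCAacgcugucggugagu
miR-10a-5p: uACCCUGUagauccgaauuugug
miR-10b-5p: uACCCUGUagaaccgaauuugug
miR-22-3p: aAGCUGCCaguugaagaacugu

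Each of the 6 different seeds was searched as its exact 7-base complement on the sense strand of the longest annotated 3′ UTR of each gene (GENCODE M21, GRCm38). In all, 13 matches were found, in 6 of the 8 genes. Areg and Egf held none. Some of the sites of the 3 genes whose levels are followed most closely below are shown, with the complement of the seed in capitals.
Egfr, miR-27b-3p: tcaattgatcttcgaACTGTGAagattcca
Egfr, miR-10a-5p and miR-10b-5p: agaggagacatatagACAGGGTtttgctca
Egfr, miR-22-3p: ttgtcaggtttccatGGCAGCTacctgggc
Btc, miR-181a-5p: aacagctagcagaaaTGAATGTttaaatat
Btc, miR-26a-5p: aaaaacggctgcccaTACTTGAttcagatt
Tgfa, miR-10a-5p and miR-10b-5p: caacacatttttcacACAGGGTtgtactct

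The Egfr sites shown lie in its 3′ UTR of 6303 bases, at 16912078 to 16912084 for miR-27b, 16913733 to 16913739 for miR-10 and 16916788 to 16916794 for miR-22, on the plus strand of chromosome 11. The Btc sites lie in a 3′ UTR of 2069 bases on the minus strand of chromosome 5, at 91359227 to 91359233 for miR-181a and 91357762 to 91357768 for miR-26a. The Tgfa site lies at 86275191 to 86275197 on the plus strand of chromosome 6, in a 3′ UTR of 3764 bases. Such 7-base matches are common. Among the 2826 genes whose 3′ UTR was within 20% of the length of that of Btc, 24.1% held the miR-181a match and 13.4% the miR-26a match. For the length of the Egfr 3′ UTR the shares were 40.1% to 48.1% for the 3 matches shown, and for that of Tgfa the miR-10 match stood in 30.2%. Hbegf held 1 match, to miR-27b. A match of letters is a description and not a site of binding, and the miRNAs themselves were not measured in these libraries.

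**Figure D1:**
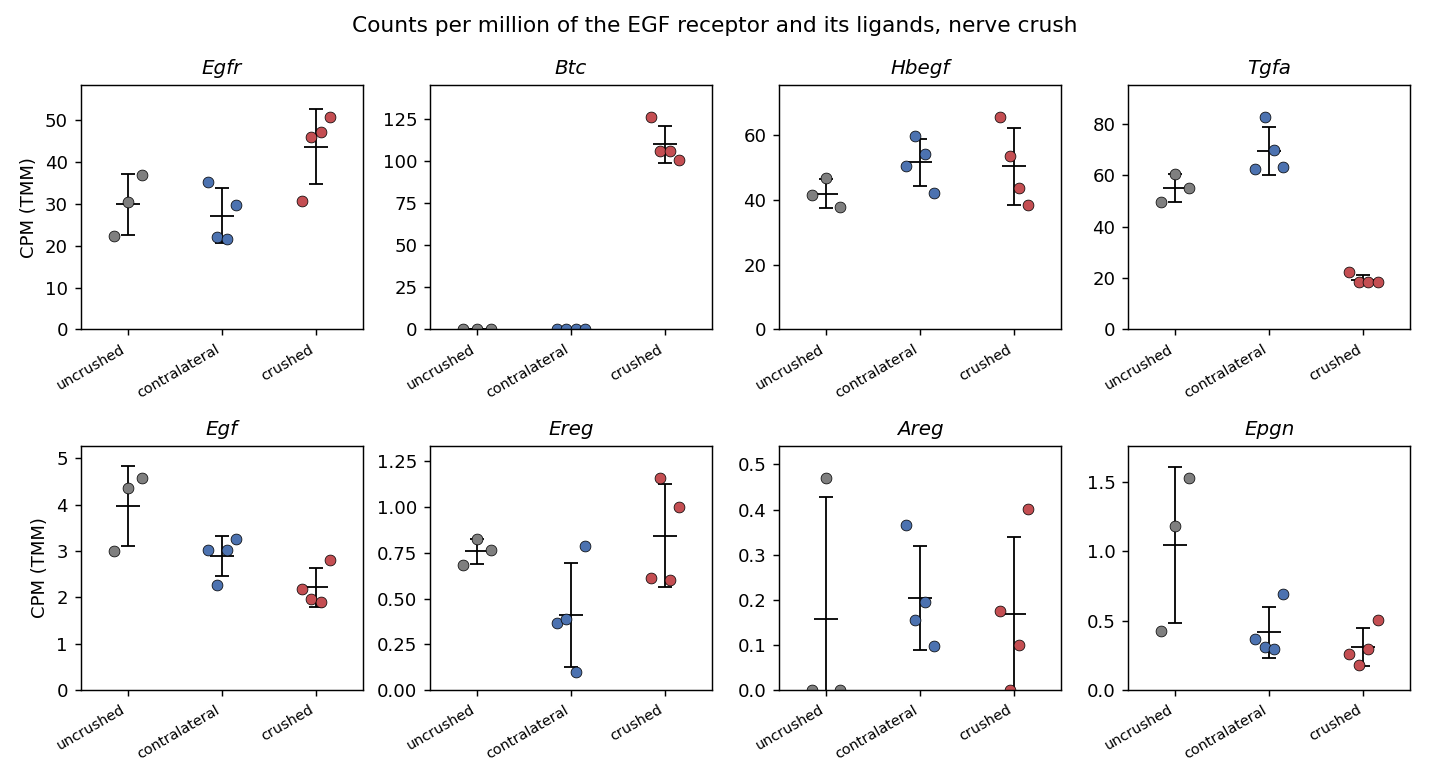
Level of each gene in CPM (y axis, linear, a scale of its own for each gene) in uncrushed (n = 3), contralateral (n = 4) and crushed (n = 4) sciatic nerves. Points are libraries and the bars mean ± SD. Btc lay at 100.5 to 126 CPM in the crushed nerves and at 0.235 to 0.513 CPM in the others, while Tgfa lay lowest in the crushed nerves.

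The first question was how the receptor and its ligands stood in the injured nerve. Btc rose and Tgfa fell at 3 dpc, against both uncrushed and contralateral nerves, whereas the fold changes of Egfr, Hbegf and Egf stayed under 2-fold. A gene was called where its fold change was at least 2 and its edgeR quasi-likelihood p, adjusted by the Benjamini-Hochberg method over all genes tested, was at most 0.05. Of the 8 genes, 5 (Egfr, Btc, Hbegf, Tgfa and Egf) passed the filter on low counts. Against uncrushed nerves, 1 was called higher and 1 lower, where 15.3% of all 17477 genes tested were called higher and 21.1% lower. Against contralateral nerves the counts were the same, with 14.6% and 13.6% of 16667 genes. By the adjusted p alone 3 of the 5 passed in each, where 67.0% and 66.4% of all genes did. Both comparisons use the same crushed libraries.

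Btc encodes betacellulin. Its counts in the 4 crushed libraries were 1444, 1188, 1062 and 1001. They were 6, 2 and 3 in uncrushed nerves and 5, 4, 5 and 3 in contralateral nerves. Every crushed library thus lay far above every other library, and the uninjured nerves lay at about the detection limit. In CPM the groups stood at 109.6 ± 11.4 (SD, n = 4), 0.402 ± 0.147 (n = 3) and 0.389 ± 0.0997 (n = 4). The log2 fold change was 7.90 (SE 0.20, edgeR adjusted p = 8.15e-11) against uncrushed and 7.97 (SE 0.16, adjusted p = 2.02e-13) against contralateral nerves. In both comparisons only 6 genes of all those tested rose by more. The sums of counts, 4695 against 11 and against 17, gave ratios of 268 (95% counting interval 149.5 to 537) and 286 (178 to 491). These intervals are wider than the fitted SEs would give, since they rest on the few control counts. Btc passed the filter only through the crushed libraries, so that it had to differ to be tested. In the contralateral against uncrushed comparison it stayed under the filter.

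Tgfa encodes a ligand that signals from the membrane as well as after release. It stood at 22.2, 18.6, 18.4 and 18.5 CPM in crushed nerves. The uncrushed nerves had 49.6, 60.6 and 55.0 CPM, and the contralateral nerves 62.5, 82.7, 69.9 and 63.0 CPM. The 3 groups did not overlap. The log2 fold change was -1.62 (SE 0.11, adjusted p = 9.95e-08) against uncrushed nerves and -1.98 (SE 0.11, adjusted p = 1.48e-09) against contralateral nerves. The higher contralateral level itself, 0.26 on the log2 scale (SE 0.11), did not pass the test (adjusted p = 0.237).

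Egfr had 30.6, 46.1, 47.1 and 50.8 CPM in crushed nerves. It had 22.3, 30.4 and 36.9 CPM in uncrushed and 35.3, 22.1, 21.7 and 29.8 CPM in contralateral nerves. The lowest crushed library lay within the range of both other groups. Against uncrushed nerves its log2 fold change was 0.44 (SE 0.19, adjusted p = 0.0593). Against contralateral nerves it was 0.55 (SE 0.17, adjusted p = 0.0118), a 1.46-fold difference that stayed under the limit of 2-fold.

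Hbegf, whose precursor also serves as the receptor for diphtheria toxin, ranged from 38.6 to 65.7 CPM in crushed, 37.7 to 46.7 CPM in uncrushed and 42.3 to 59.7 CPM in contralateral nerves. The 3 ranges overlapped. Its log2 fold change was 0.14 (95% interval -0.16 to 0.45, adjusted p = 0.425) against uncrushed nerves and -0.18 (-0.46 to 0.11, adjusted p = 0.294) against contralateral nerves. Egf itself was scarce, with 19 to 28 counts per crushed library, 30 to 37 in uncrushed and 29 to 33 in contralateral nerves. Its log2 fold change was -0.93 (SE 0.26, adjusted p = 0.00715) against uncrushed nerves, just short of 2-fold, and -0.51 (SE 0.22, adjusted p = 0.0578, or 0.0491 with the replicate number as a block) against contralateral nerves. The former call turned on the setting, as Egf passed the 2-fold limit with the replicate block (-1.09), with all groups in one fit (-1.04), without uncrushed replicate 1 (-1.09) and without crushed replicate 4 (-1.11).

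The other 3 ligands were at or near the detection limit. Areg had 0 to 4 counts per library. Ereg had 6 to 13 counts in crushed, 5 to 8 in uncrushed and 1 to 8 in contralateral nerves. Epgn had 2 to 5, 5 to 10 and 3 to 7 counts in the same order of groups. The neighbours of Btc on chromosome 5 thus showed no rise like that of Btc that could be seen at this depth. Contralateral and uncrushed nerves were called different in 0 of the 4 genes tested there, and of 17722 genes edgeR called 0% (3164 had an unadjusted p under 0.05, and DESeq2 called 0 genes as well). Other settings called 13 genes higher and 128 lower (no filter), 6 lower (replicate block) or up to 95 lower (1 replicate left out).

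To compare the ligands with each other, the deposited TPM values, which are scaled to transcript length, were summed per gene and given as a share of the 7 ligands. In uncrushed nerves Hbegf held 49.2 ± 2.46% and Tgfa 43.1 ± 1.27% (SD, n = 3), and in contralateral nerves 49.9 ± 2.04% and 45.5 ± 2.42% (n = 4). At 3 dpc Btc held 57.2 ± 2.33% (n = 4), Hbegf 31.8 ± 3.51% and Tgfa 8.27 ± 0.613%. Btc had held 0.172% to 0.685% in the 7 libraries without injury. Since shares add up to 100%, a rise of Btc lowers the share of the others.

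**Figure D2:**
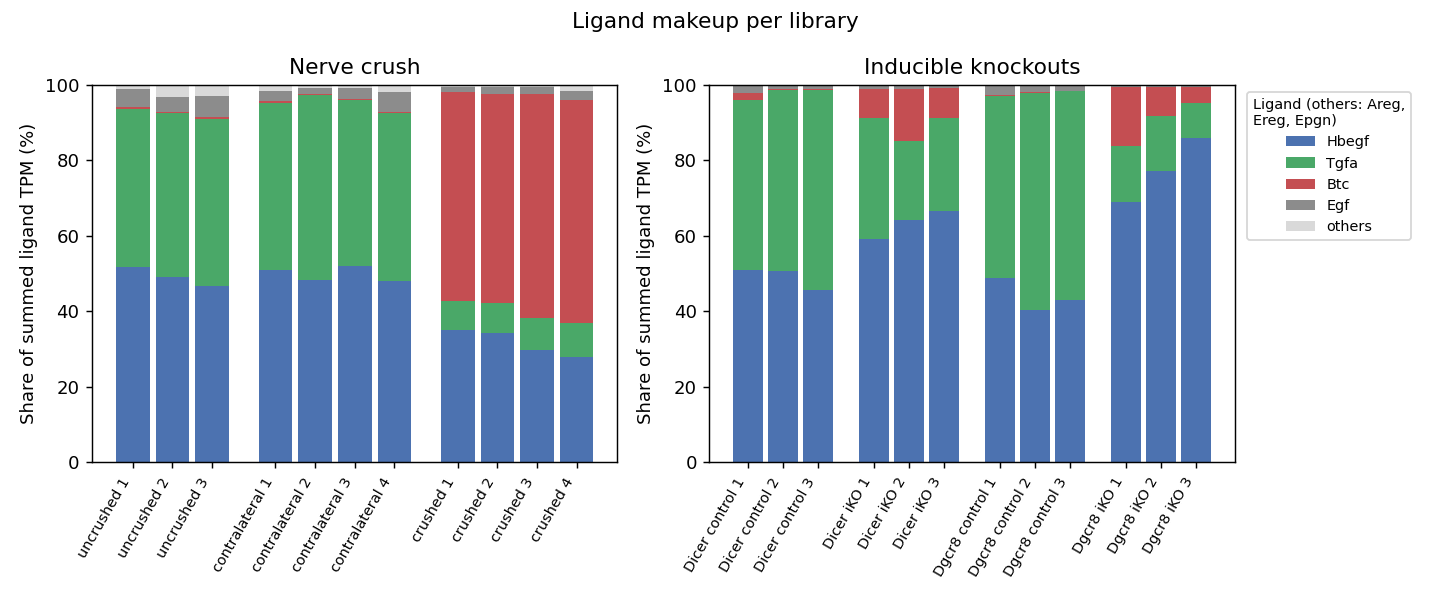
Share of each ligand in the summed ligand TPM (y axis, %) in every library, stacked, for the crush experiment and the iKO experiment. Hbegf and Tgfa make up most of the bar in all uninjured and control libraries, Btc holds 55.2% to 59.4% in crushed nerves, and Hbegf holds 59.1% to 86.0% in the iKO libraries.

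Markers of other cells also differed in the same crushed libraries. The 9 macrophage markers, such as Adgre1, Cd68 and Csf1r, summed to 533, 998, 855 and 874 CPM at 3 dpc, to 119.9 to 125 CPM in uncrushed and to 80.3 to 155 CPM in contralateral nerves. Markers of proliferating cells summed to 779 to 1177 CPM against 16.7 to 34.3 CPM. In the order of the crushed macrophage sums above, Btc stood at 126, 106, 106 and 100.5 CPM. Fibroblast markers summed to 3040.0 to 3695 CPM in crushed and 3624 to 4853 CPM in all other nerves of the experiment. Perineurial markers summed to 116 to 135 CPM in crushed, 293 to 359 CPM in uncrushed and 345 to 453 CPM in contralateral nerves. Of the 4 perineurial markers tested against uncrushed nerves, 1 was called lower and 0 higher, near the shares of all genes (21.1% and 15.3%). In whole nerve, fewer cells of a type and less RNA per cell cannot be told apart, and the part of the cell makeup in the levels of Btc, Tgfa or Egfr was not tested.

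**Figure D3:**
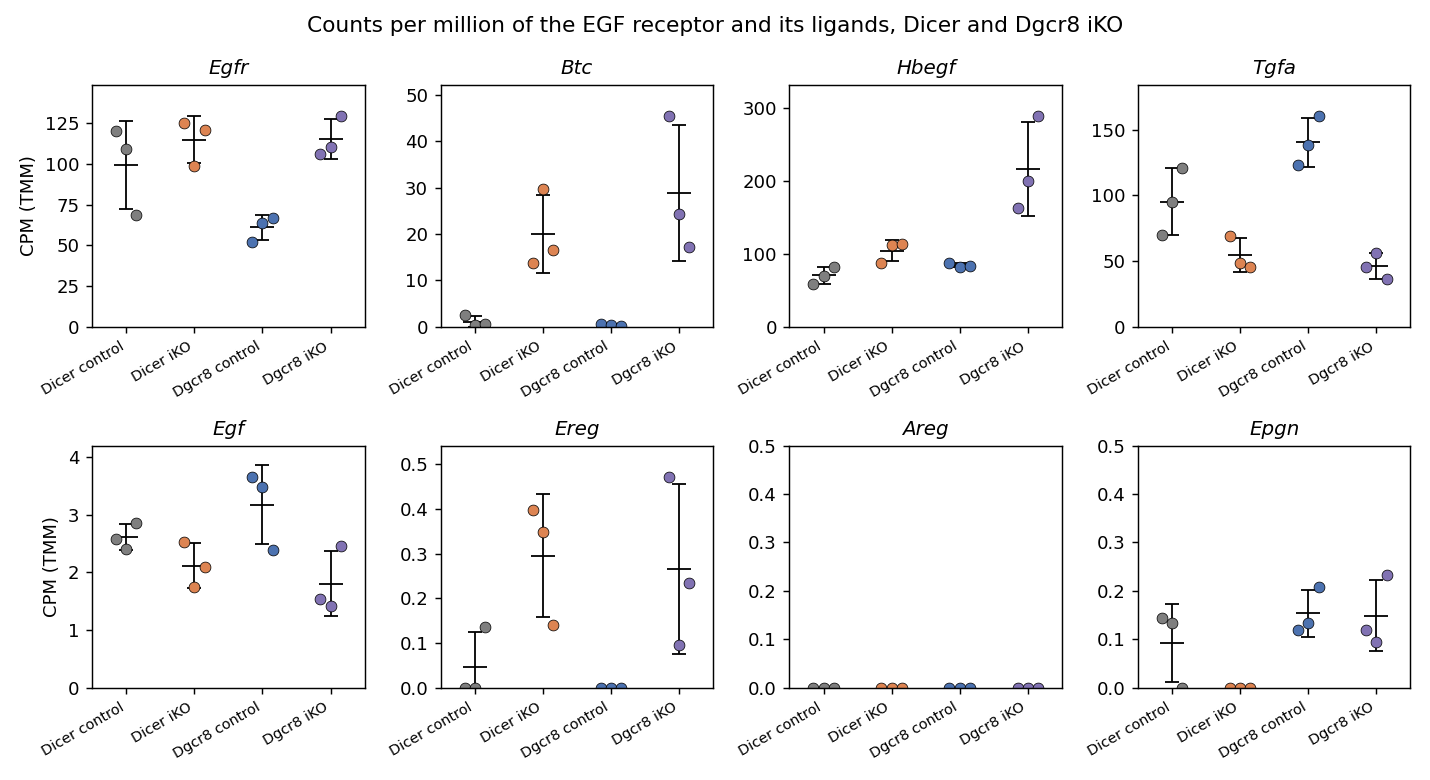
Level of each gene in CPM (y axis, linear, a scale of its own for each gene) in the Dicer control, Dicer iKO, Dgcr8 control and Dgcr8 iKO libraries (n = 3 each). Points are libraries and the bars mean ± SD. Btc was higher in every iKO library than in every control library, and Areg was at 0 counts throughout.

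The second question was how the same genes stood in uninjured nerves whose SCs were to lose Dicer or Dgcr8. Btc rose in both mutants. Hbegf rose and Tgfa fell past the limit in Dgcr8 iKO, and both moved in the same direction by less than 2-fold in Dicer iKO. The same 5 genes passed the filter. In Dicer iKO 1 was called higher and 0 lower, where 7.37% of 13045 genes were called higher and 1.64% lower. In Dgcr8 iKO 2 were called higher and 1 lower, where 13.4% of 13252 genes were called higher and 6.99% lower. By the adjusted p alone, without the limit on the fold, 3 of the 5 passed in Dicer iKO and 4 of the 5 in Dgcr8 iKO, against 21.2% and 44.5% of all genes. Of the 5 genes 0 passed the test of the difference between the 2 mutants (the interaction term), as did 0.0148% of 13552 genes.

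Btc had 104, 171 and 119 counts in Dicer iKO and 17, 3 and 4 in its controls. In Dgcr8 iKO it had 386, 256 and 148 counts, against 6, 3 and 1. The groups did not overlap in either mutant, although the libraries within a mutant differed by more than those of the crushed nerves. The means were 20.0 ± 8.51 against 1.13 ± 1.14 CPM and 29.0 ± 14.7 against 0.404 ± 0.301 CPM (SD, n = 3). The log2 fold change was 4.15 (SE 0.58, edgeR adjusted p = 0.00444) in Dicer iKO and 6.15 (SE 0.52, adjusted p = 9.04e-06) in Dgcr8 iKO. Here too Btc passed the filter through the mutant libraries. The ratios of the summed counts were 17.5 (95% counting interval 11.6 to 27.6) and 73.2 (39.6 to 153). Without the first Dicer control library, which held 17 of the 24 control counts, the log2 fold change in Dicer iKO was 5.35. The difference between the 2 mutants, 2.0 on the log2 scale (SE 1.04), did not pass the interaction test (adjusted p = 0.423).

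Hbegf stood at 162, 199 and 288 CPM in Dgcr8 iKO and at 87.5, 81.8 and 83.8 CPM in its controls. In Dicer iKO it stood at 88.0, 112 and 113 CPM, against 59.0, 70.2 and 81.9 CPM. Mutant and control libraries did not overlap in either pair. On the log2 scale the fold change was 1.35 (SE 0.19, adjusted p = 2.11e-04) in Dgcr8 iKO and 0.58 (SE 0.15, adjusted p = 0.0330, a 1.49-fold difference) in Dicer iKO. The difference between them was 0.78 (SE 0.27, adjusted p = 0.237).

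Tgfa stood at 45.8, 55.9 and 36.2 CPM in Dgcr8 iKO against 123, 138 and 160.0 CPM in its controls. In Dicer iKO it stood at 69.3, 48.7 and 45.4 CPM against 69.8, 94.7 and 121 CPM, so that the highest mutant library nearly met the lowest control. For Tgfa the log2 fold change was -1.61 (SE 0.17, adjusted p = 3.14e-05) in Dgcr8 iKO and -0.80 (SE 0.23, adjusted p = 0.0471) in Dicer iKO, the latter short of 2-fold. Without the first Dicer iKO library the value in Dicer iKO was -1.01 and passed (adjusted p = 0.0300). The difference between the mutants was -0.81 (SE 0.31, adjusted p = 0.289).

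Egfr stood at 106, 110.0 and 129 CPM in Dgcr8 iKO and at 52.1, 63.8 and 67.0 CPM in its controls, which it did not overlap. Its log2 fold change of 0.91 (SE 0.14, adjusted p = 3.02e-04) was a 1.88-fold difference and stayed under the 2-fold limit. In Dicer iKO it stood at 125, 98.4 and 121 CPM and in the Dicer controls at 120.3, 109 and 68.8 CPM. These overlapped, with a log2 fold change of 0.21 (95% interval -0.19 to 0.62, adjusted p = 0.492). The difference between the mutants, 0.70 (SE 0.26, adjusted p = 0.279), did not pass, but it was 0.91 with an adjusted p of 0.0270 without the third Dicer control library. In order of mean level, Egfr was lowest in Dgcr8 controls (61.0 CPM), followed by Dicer controls (99.4 CPM), and stood at 115 CPM in both mutants. The ranges of the Dicer controls and of both mutants overlapped one another.

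Egf had 13 to 21 counts in Dgcr8 iKO and 23 to 31 in its controls, with a log2 fold change of -0.82 (SE 0.35, adjusted p = 0.0799). In Dicer iKO it had 10 to 19 counts against 18 to 21 (log2 fold change -0.29, adjusted p = 0.536). Areg had 0 counts in all 12 libraries, which allows up to 0.285 to 0.522 CPM. Ereg had 1 to 4 counts in the iKO libraries and at most 1 in the controls, and Epgn at most 2 in any library, all below the limit or within counting error of it.

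By share of the ligand TPM, the control nerves again held mostly Hbegf and Tgfa (49.1 ± 2.96% and 48.7 ± 3.94% in Dicer controls, 44.1 ± 4.35% and 53.7 ± 4.92% in Dgcr8 controls, SD, n = 3). In Dicer iKO Hbegf held 63.4 ± 3.85%, Tgfa 25.8 ± 5.80% and Btc 9.77 ± 3.53%. In Dgcr8 iKO they held 77.4 ± 8.47%, 12.9 ± 3.18% and 9.20 ± 5.93%. Btc therefore took a lesser share than Hbegf in every mutant library, whereas it took a greater share than Hbegf in every crushed library. Egfr mRNA per length (35.8 ± 1.14 TPM in Dgcr8 iKO and 37.9 ± 4.96 TPM in Dicer iKO) was below that of Hbegf (192 ± 53.1 and 92.8 ± 13.7 TPM) in both mutants.

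Summed markers of other cells also differed between mutants and controls. Fibroblast markers summed to 20286, 20647 and 19345 CPM in Dicer iKO and to 14761, 11089 and 4579.9 CPM in Dicer controls. In Dgcr8 iKO they summed to 15569, 14426 and 17392 CPM, against 6046, 7899.6 and 6854 CPM. The order of the libraries was that of their Egfr levels within the Dicer controls, but not within Dicer iKO, Dgcr8 controls or Dgcr8 iKO. In each mutant 3 of the 6 fibroblast markers tested rose, where 7.37% (Dicer iKO) and 13.4% (Dgcr8 iKO) of all genes did. These were Col1a1 (log2 fold change 1.80 in Dicer iKO and 1.5 in Dgcr8 iKO), Col3a1 (1.73 and 1.42) and Lum (1.34 and 1.53). Pdgfra stood at -0.38 and -0.11, Clec3b at -0.81 and -0.19 and Dcn at 0.02 and 0.64. Macrophage markers summed to 1241 to 2054 CPM in Dicer iKO and 932 to 2068 CPM in Dgcr8 iKO, against 236 to 701 CPM and 252 to 292 CPM in their controls. Markers of proliferating cells summed to 74.1 to 110.0 CPM and 205 to 304 CPM in the mutants, against 5.30 to 13.8 CPM in all controls. T cell and innate lymphoid markers summed to 10.6 to 17.2 CPM and 19.3 to 22.1 CPM, against at most 2.15 CPM and 1.21 CPM. Of these 6 markers only Il7r passed the filter in Dicer iKO (log2 fold change 4.10). In Dgcr8 iKO only Il7r (5.65) and Cd3g (7.18) did. Il7r in both mutants and Cd3g in Dgcr8 iKO passed through the mutant libraries, so they had to differ to be tested. Mast cell markers summed to 257 to 345 CPM and 93.3 to 131 CPM, against 42.5 to 215 CPM and 16.5 to 57.1 CPM. Markers of myelinating SCs summed to 22472 to 28087 CPM and 14375 to 28450.0 CPM in the mutants and to 28519 to 47736 CPM and 44226 to 47307 CPM in the controls. Endothelial markers summed to 166 to 182 CPM and 169 to 234 CPM, against 245 to 267 CPM and 266 to 301 CPM. Of the 8 myelinating SC, 6 mast cell and 6 endothelial markers tested, 0 were called in Dicer iKO (all genes 7.37% higher and 1.64% lower). In Dgcr8 iKO 5 myelinating SC markers and 1 endothelial marker were called lower, and 5 mast cell markers higher (all genes 6.99% lower and 13.4% higher). Perineurial markers summed to 497 to 670.2 CPM and 429.7 to 551 CPM, against 734 to 1514 CPM and 553 to 882 CPM. Of the 5 perineurial markers tested, 1 was called lower in Dicer iKO (all genes 1.64%) and 2 were called higher in Dgcr8 iKO (all genes 13.4%). The Dicer control with the highest Btc count had the highest fibroblast and macrophage sums and the lowest sum of myelinating SC markers of its group. In Dgcr8 iKO it was the library with the lowest Btc level (17.2 CPM) that had these extremes (17392, 2068 and 14375 CPM). In Dicer iKO the library with the highest Btc level had the highest fibroblast sum but not the highest macrophage sum. The part of these cells in the levels of Egfr and the ligands was not tested.

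**Figure D4:**
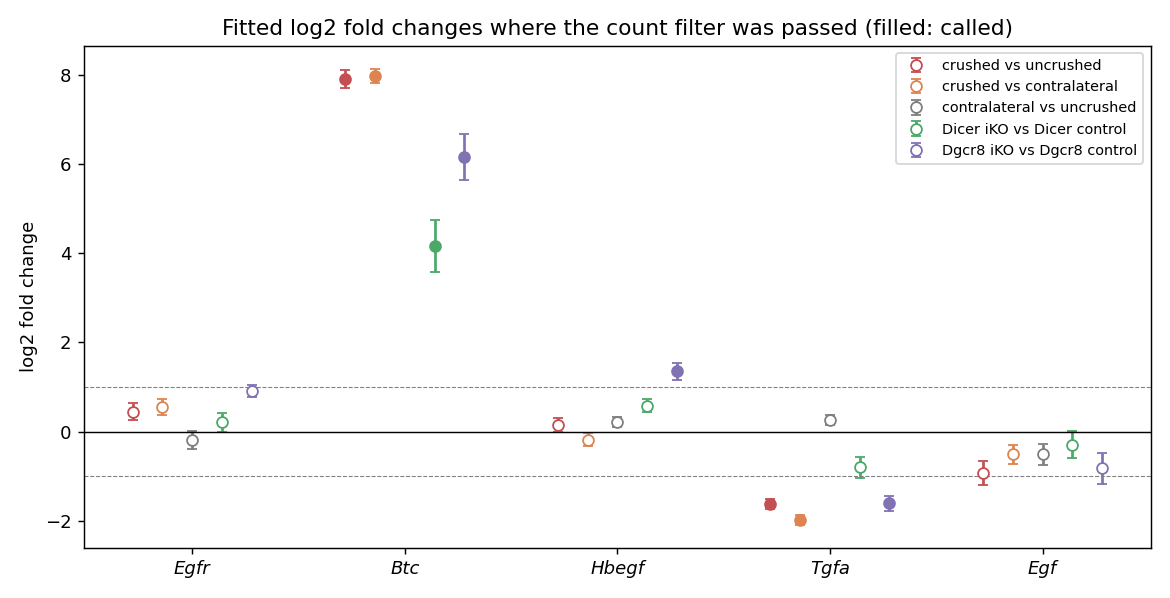
Log2 fold change (y axis) of the genes that passed the count filter in each of 5 comparisons, with bars of 1 SE and dashed lines at the 2-fold limits. Filled points were called. Btc lies at 4.15 to 7.97 in the 4 comparisons that show it, in each of which it passed the filter through the group where it was high.

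Egfr mRNA was divided by the authors' quantification among several transcripts. The long transcript ENSMUST00000020329 of 10208 bases took 86.3 ± 3.62% of the Egfr counts in uncrushed, 82.1 ± 2.87% in contralateral and 90.2 ± 5.40% in crushed nerves (SD). The short coding transcript ENSMUST00000102884 of 2943 bases took 10.2 ± 2.15%, 14.0 ± 2.58% and 7.87 ± 4.42%. In the iKO experiment the short transcript took 24.9 ± 1.21% in Dicer controls and 26.7 ± 2.12% in Dicer iKO. It took 24.8 ± 2.27% in Dgcr8 controls and 22.9 ± 3.15% in Dgcr8 iKO (n = 3 each). The ranges of the groups compared overlapped throughout, and no test was run because transcripts that share exons also share reads. Of the Tgfa counts, ENSMUST00000032066 took a mean of 92.9% to 96.6% in every group, and Hbegf was listed with 1 transcript.

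The genes most like Egfr, Hbegf and the other leading ligand of each experiment were named by Pearson correlation of log2(CPM + 1) over libraries. Over the 11 crush libraries and 16877 genes, Egfr was closest to Cp (r = 0.959), Gm15964 (0.954) and Etv1 (0.938). Cp encodes ceruloplasmin, a copper-carrying ferroxidase, and Etv1 an ETS family transcription factor. Btc was close to Timp1 and Lgals3 (0.999 each), which encode a metalloproteinase inhibitor and galectin-3. Hbegf was closest to Ccdc130 (0.922). Over the 12 iKO libraries and 13389 genes, Egfr was closest to Sorcs2 (0.971), Thbs4 (0.969) and Medag (0.956), Hbegf to Tbx2 (0.980), and Tgfa to Mat2a (0.990). These values are descriptions, since the libraries share groups and a group difference alone gives a high correlation.

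Next, 93 other genes of the pathway were examined, in 6 lists by role. At 3 dpc, 32 of the 90 tested rose (35.6%, against 15.3% of all genes) and 8 fell (8.89%, against 21.1%) relative to uncrushed nerves. Relative to contralateral nerves 30 of 91 rose (33.0%, against 14.6% of all genes) and 10 fell (against 13.6%). In both counts Adam8, Fosl1 and Plaur, which rose, passed the filter through the crushed libraries. In Dicer iKO 9 of 90 rose and 1 (1.11%) fell (against 7.37% and 1.64% of all genes). In Dgcr8 iKO 22 of 90 rose and 3 fell (24.4% and 3.33%, against 13.4% and 6.99%). Of these genes 0 were called between contralateral and uncrushed nerves and 0 passed the interaction test. Among those that rose, Plaur in both mutants and Dusp5 in Dgcr8 iKO passed the filter through the mutant libraries. The median log2 fold change of all genes tested was -0.03 in crushed against uncrushed nerves and -0.01 in each mutant.

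Among the partner receptors, Erbb4, a receptor for neuregulins and for Btc and Hbegf, fell by 3.22 on the log2 scale (SE 0.15, adjusted p = 3.45e-09) against uncrushed nerves and by 1.32 (SE 0.27, adjusted p = 0.0150) in Dicer iKO. In Dgcr8 iKO its value of -0.79 (adjusted p = 0.00585) was under 2-fold. Erbb2 and Erbb3 were called in no comparison, with log2 fold changes of -0.06 and -0.47 in crushed against uncrushed nerves, 0.26 and 0.27 in Dicer iKO and 0.42 and 0.50 in Dgcr8 iKO.

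Among the sheddases and their regulators, 3 of 11 tested rose and 2 fell at 3 dpc against uncrushed nerves (all genes 15.3% and 21.1%), with a list median of 0.47. Adam8, a protease typical of myeloid cells, rose by 3.83 (SE 0.40), Adam9 by 1.67 (SE 0.09) and Adam15 by 1.14 (SE 0.13). Adam8 stayed under the filter between contralateral and uncrushed nerves, so it had to differ to be tested at 3 dpc. Adam10, which releases Btc and EGF, fell by 1.51 (SE 0.11), and Rhbdl3, a rhomboid protease, fell by 1.65 (SE 0.32). In Dicer iKO 3 of 12 rose and 0 fell (median 0.26, all genes 7.37% and 1.64%), and in Dgcr8 iKO 5 of 12 rose and 0 fell (median 0.63, all genes 13.4% and 6.99%). Adam17, the main sheddase of Tgfa and Hbegf, rose by 1.32 (SE 0.11, adjusted p = 0.00134) in Dicer iKO and 1.48 (SE 0.13, adjusted p = 1.31e-05) in Dgcr8 iKO. Adam8 rose by 5.20 (SE 0.36) and 4.82 (SE 0.46) in the same comparisons, in which the macrophage markers were higher too. Adam10 stood at -0.58 and -0.89 there, under 2-fold.

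The co-receptors hold proteoglycans and tetraspanins that bind ligand precursors at the cell surface. Of 8 tested, 3 rose and 2 fell at 3 dpc against uncrushed nerves (all genes 15.3% and 21.1%). Gpc1 rose by 4.68 (SE 0.14), Cd44 by 4.43 (SE 0.14) and Sdc1 by 2.01 (SE 0.14), all of them proteoglycans or able to carry heparan sulfate, while the tetraspanins Cd9 and Cd82 fell by 2.07 (SE 0.09) and 1.37 (SE 0.12). In Dgcr8 iKO Cd44, Gpc1 and Sdc1 rose by 2.95, 2.30 and 1.81, and Cd82 fell by 1.07 (all genes 13.4% and 6.99%). In Dicer iKO 1 of the 8 was called, Cd44 (2.25, SE 0.22), where 7.37% of all genes rose and 1.64% fell.

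Of 36 tested adaptors and proximal effectors, 6 rose and 3 fell at 3 dpc against uncrushed nerves, where 15.3% of all genes rose and 21.1% fell, so the share that rose was near that of all genes. Eps8, a substrate of the receptor, rose by 3.44 (SE 0.10), the phospholipase Plcg2 by 2.74 (SE 0.21) and the adaptor Gab2 by 2.51 (SE 0.10). Pik3r1, a regulatory subunit of PI3K, fell by 2.35 (SE 0.11), and the kinase gene Mapk3 fell by 1.49 (SE 0.10). In Dicer iKO 2 rose (Plcg2 by 1.92 and Vav3 by 1.03) and 0 fell. In Dgcr8 iKO 4 rose, led by Plcg2 (2.16), Src (1.55) and Gab2 (1.22), and Mapk3 fell by 1.11. Both counts of genes that rose lay below the shares of all genes (7.37% and 13.4%). The list medians were 0.37, 0.02 and 0.11 in the 3 comparisons.

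Receptor feedback inhibitors, which are induced by or act on ErbB and MAPK signalling, rose in 11 of 20 genes and fell in 0 at 3 dpc against uncrushed nerves (all genes 15.3% and 21.1%), with a median of 1.35. Dusp5, a phosphatase of ERK, rose by 3.89 (SE 0.19), Sh3kbp1, which takes part in receptor endocytosis, by 2.0 (SE 0.10) and the Ras effector Rin1 by 1.91 (SE 0.24). Errfi1, a direct inhibitor of the EGF receptor kinase that was named after its values were seen, stood at -0.92 (adjusted p = 9.17e-05) at 3 dpc, -0.80 (adjusted p = 0.0302) in Dicer iKO and -0.90 (adjusted p = 0.00253) in Dgcr8 iKO, each under 2-fold. In Dgcr8 iKO 7 of 20 rose and 0 fell (median 0.58, all genes 13.4% and 6.99%), led by Dusp5 (2.41, SE 0.42), Rin1 (1.35, SE 0.34) and Dusp4 (1.30, SE 0.20). Dusp5 passed the filter there through the mutant libraries. In Dicer iKO 1 of 20 rose, a share near the 7.37% of all genes, and the list median was 0.04. The gene that rose there was scarce (mean log2 CPM 0.58) and also passed the filter through the mutant libraries.

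Early response targets of growth factor signalling rose in 9 of 12 genes at 3 dpc against uncrushed nerves (median 1.86, all genes 15.3%). Plaur, the urokinase receptor, rose by 5.76 (SE 0.32), Fosl1 by 5.50 (SE 0.25) and Fos by 3.29 (SE 0.20), the latter pair encoding AP-1 subunits. Plaur and Fosl1 stayed under the filter between contralateral and uncrushed nerves, so they had to differ to be tested at 3 dpc. In Dicer iKO 2 of 11 rose (all genes 7.37%), Plaur (3.48, SE 0.34) and Myc (1.06, SE 0.27). Plaur passed the filter through the mutant libraries, here and in Dgcr8 iKO, so it had to differ to be tested. In Dgcr8 iKO 3 of 11 rose (all genes 13.4%), Plaur (3.25, SE 0.44), Myc (2.03, SE 0.25) and Egr3 (1.45, SE 0.40). Fosb fell by 2.35 (SE 0.47), where 6.99% of all genes fell. All these genes also answer to other signals and are expressed by other cells of the nerve, and macrophage markers were higher in the same groups, whose part was not tested.

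**Figure D5:**
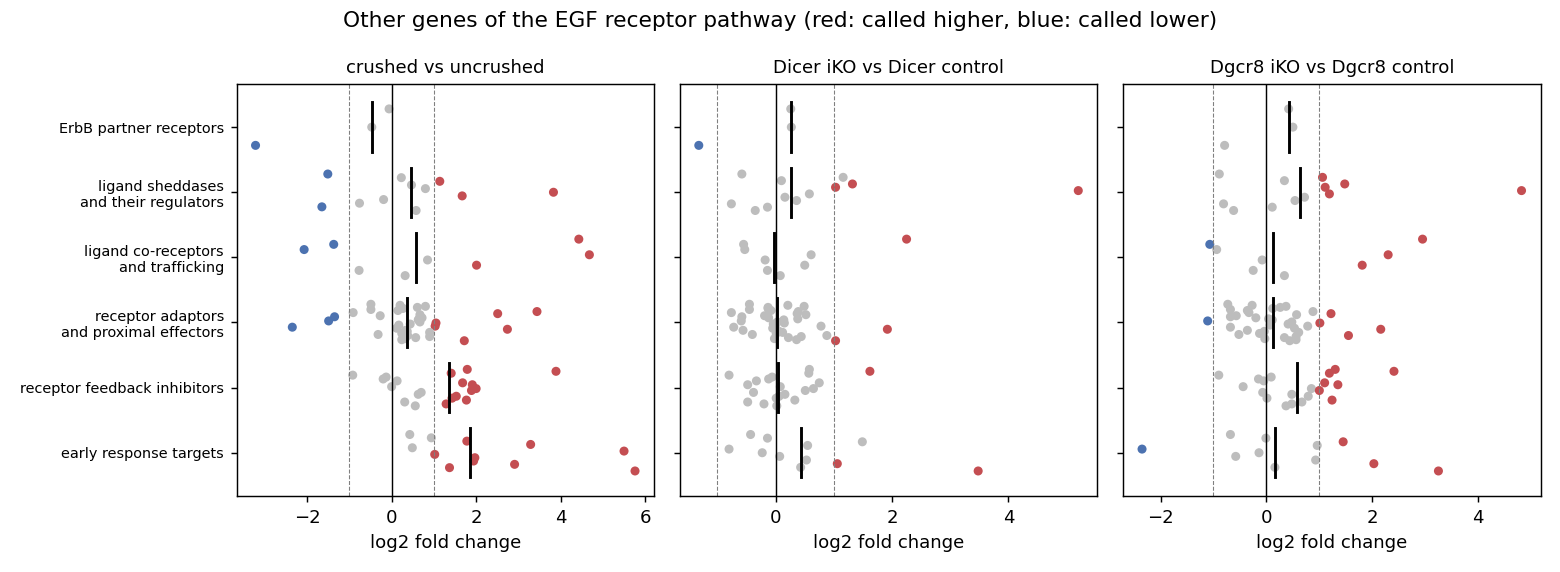
Log2 fold change (x axis) of each tested pathway gene, by list (rows), in crushed against uncrushed nerves, Dicer iKO and Dgcr8 iKO. Points are genes (red called higher, blue called lower, grey neither), black bars are list medians and dashed lines the 2-fold limits; the feedback inhibitors and early response targets lie mostly right of 0 in crushed nerves, with medians of 1.35 and 1.86.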

How the data were processed

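RNA sequencing was analysed in 23 libraries of mouse sciatic nerve in 7 groups. Per the study's methods and processing notes, reads were cut with Trimmomatic and mapped to GRCm38, and the authors deposited RSEM expected counts, TPM and FPKM per Ensembl transcript. The expected counts deposited by the authors are not normalized; here they were summed per gene and rounded. The deposited TPM are scaled by the authors to transcript length and library size, and were summed per gene to compare levels between genes. FPKM and posterior estimates were not used. RSEM divides reads among transcripts that share sequence, so transcript shares are estimates. According to the labels, crush libraries were made with a SMARTer kit for low input and iKO libraries with TruSeq after rRNA removal, whereas the methods of the study name TruSeq for all.

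Each comparison was fitted on its own libraries, and the difference between mutants as an interaction in 1 fit of all 12 iKO libraries, with edgeR 4.0.16 in R 4.3.3 (filterByExpr with a minimum count of 10, TMM, quasi-likelihood test, Benjamini-Hochberg over all genes tested). Calls needed a fold change of at least 2 and an adjusted p of at most 0.05, and the interaction the adjusted p alone. Standard errors were obtained by dividing the log2 fold change by the root of the F statistic, and 95% intervals are 1.96 standard errors to each side. Intervals for count ratios cover counting error only, since PCR copies could not be told from separate molecules. The fits were tested on simulated data. Replicates were not copies of each other (chi-square per degree of freedom 4.19 to 41.6 over 27 pairs). The title and the description of an uncrushed library disagree on its replicate number (3 and 4), and that of the title was taken.

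Named genes were all 8 genes of the system, up to 3 called genes per direction, list and comparison with the largest log2 fold change where the mean log2 CPM was 1 or more, and the 3 genes of highest correlation (mean CPM of at least 1, pseudocount 1) for Egfr and the 2 ligands of highest TPM. The genes, lists and tests were chosen with earlier results of these data known, and the miRNA seeds were added after the values were seen. Alternatives were RLE normalization, no filter (at least 1 count), DESeq2 1.42.0 (Wald test), the replicate number as a block, all groups of an experiment in one fit, and each replicate left out in turn. Protein sequences were not used here, and the developing mutants and small RNA libraries were not analysed here. A few items that these rules select are not reported here.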

Additional observations from a re-analysis of the deposited data

Results flagged for a closer look

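In the 4 crushed nerves, the first library had the highest Tgfa level, 22.2 CPM, against 18.4 to 18.6 CPM in the other three, and its gap was large for a group of 4 (ratio of gap to range 0.944). Chance flags about 1 in 20 such groups, and 16 groups of values were examined. Without this library the log2 fold change of Tgfa against uncrushed nerves was -1.72 in place of -1.62. The same library had the lowest sum of macrophage markers (533 CPM) and the highest Btc level (126 CPM) of its group, and a link between these was not tested.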

How the results depend on the processing

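Btc and Tgfa in both crush comparisons, and Btc, Hbegf and Tgfa in Dgcr8 iKO, as well as Btc in Dicer iKO, kept their direction and their call under every alternative that was run, including each replicate left out. The number of the 8 genes called lower at 3 dpc against uncrushed nerves was 2 in place of 1 without the filter, with the replicate block and with all groups in one fit. It was 1 to 3 with a replicate left out. Without the filter Epgn met the limits (-1.53, edgeR adjusted p = 0.0324), on few counts. Egf, at -0.93, passed the 2-fold limit with the block (-1.09), in one fit (-1.04), without uncrushed replicate 1 (-1.09) and without crushed replicate 4 (-1.11). In Dicer iKO the number called lower was 0 to 1 and in Dgcr8 iKO 1 to 2 (Egf at -1.09 without Dgcr8 iKO replicate 3). Values that changed sign were not called: with a replicate left out, Hbegf at 3 dpc against uncrushed nerves ranged from -0.04 (without crushed replicate 1) to 0.25, and Egfr in contralateral against uncrushed nerves from -0.37 to 0.01 (without uncrushed replicate 3). Over all genes, contralateral against uncrushed nerves gave 13 higher and 128 lower without the filter, 6 lower with the replicate block and 1 lower in one fit, and 0 to 95 lower with a replicate left out. In Dicer iKO the replicate block gave 548 higher and 92 lower in place of 961 and 214, and leaving out a replicate gave 515 to 1093 and 57 to 375. The interaction test, at 1 higher and 1 lower, gave 0 lower with RLE, 17 and 3 without the filter, 165 and 63 with DESeq2 and 0 and 0 with the replicate block; leaving out a replicate gave 0 to 320 higher and 0 to 81 lower, and 0 to 1 of the 8 genes (Egfr). The cause was not tested. Same-numbered libraries did not deviate together (correlations -0.194 to 0.243), so numbers were not taken to pair the samples, and the block changed no other call of the 8 genes. Counts of Btc in control nerves, and all counts of Areg, Ereg and Epgn, are too few for their changes to be sized at this depth.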
